A study of Avicennia germinans with 18 samples.

Results

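The 100 transcripts described here gained the most reads in the stems of arid-forest seedlings of Avicennia germinans, the black mangrove. They were chosen from 29854 rows whose identifier starts with Ag_, in a table of 47821 transcripts, by the mean level in 3 arid stems minus the mean level in 3 humid stems. Levels are counts per 1000000 reads (CPM), each count being divided by the total of its library. The choice used the stem levels themselves, so every stem difference between the forests below is a description and was not tested. The study took leaves, stems and roots of 6 seedlings that had germinated and grown in the field, 3 in a forest that the labels call arid and 3 in one called humid. The forests contrast in freshwater, salt, light and temperature. All seedlings spent 72 hours in 3 L pots of mangrove soil, shaded and well watered, before harvest. Each group of arid stems, humid stems, arid leaves, humid leaves, arid roots and humid roots thus held 3 libraries. Each forest stands for 1 place, sampled on the same day, so forest and place cannot be told apart, and the replicates are seedlings.

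Avicennia germinans grows between land and sea, excludes part of the salt at its roots and secretes salt through glands on its leaves. The stem of a seedling links both: its xylem carries water and salt up to the leaves, its phloem carries sugars down, and its green outer tissue can photosynthesise. Where water is short or salty, plant stems and leaves are known to change the transcripts of proteins that guard membranes and other proteins against drying. The identifiers come without gene names here, so no such function can be assigned to a member, and members are given by identifier. A longer transcript collects more reads, and lengths were not used here, so levels are compared between libraries for each transcript and not between transcripts.

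Library totals (M, 1000000 reads) lay between 12.0 M and 16.7 M in arid stems and between 6.11 M and 12.9 M in humid stems. They lay between 7.42 M and 16.8 M in arid leaves and between 7.15 M and 23.7 M in humid leaves, and between 7.87 M and 18.2 M in arid roots and between 3.07 M and 9.05 M in humid roots. Single libraries stood apart on lists of transcripts typical of an organ, set on humid libraries. For 235 leaf-typical transcripts the humid leaf mean was 50 CPM or more and exceeded the humid root mean 20-fold or more. Members left out, these took 2.21%, 0.148% and 0.887% of the reads of arid roots 1, 2 and 3, against 0.0460% to 0.0650% in humid roots. For 72 root-typical transcripts the humid root mean was 50 CPM or more and exceeded the means of both humid shoot organs 20-fold or more. Members left out, these took 0.0465%, 0.157% and 0.0144% of the reads of arid stems 1, 2 and 3, against 0.0165% to 0.0242% in humid stems. Arid root 1 was therefore the arid root richest in leaf-typical reads, and arid stem 2 the arid stem richest in root-typical reads.

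Together the 100 members took 8.75%, 11.4% and 10.8% of the reads of arid stems 1, 2 and 3, against 2.35%, 1.94% and 2.26% of humid stems 1, 2 and 3. They made up 44.8% of the summed gain of the 9580 Ag_ rows that were higher on average in arid stems. The other organs were not used in the choice. In leaves the members took 5.37%, 8.03% and 7.17% of the reads of arid leaves 1, 2 and 3, against 4.23%, 3.64% and 5.66% of humid leaves 1, 2 and 3. Arid leaf 1 lay below humid leaf 3, so the groups overlapped. In roots the members took 4.23%, 3.46% and 4.22% of the reads of arid roots 1, 2 and 3, against 2.41%, 1.76% and 2.34% of humid roots 1, 2 and 3, and the groups did not overlap. Whether more cells of a type or more RNA per cell lay behind a higher level cannot be told apart in such bulk libraries.

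**Figure D1:**
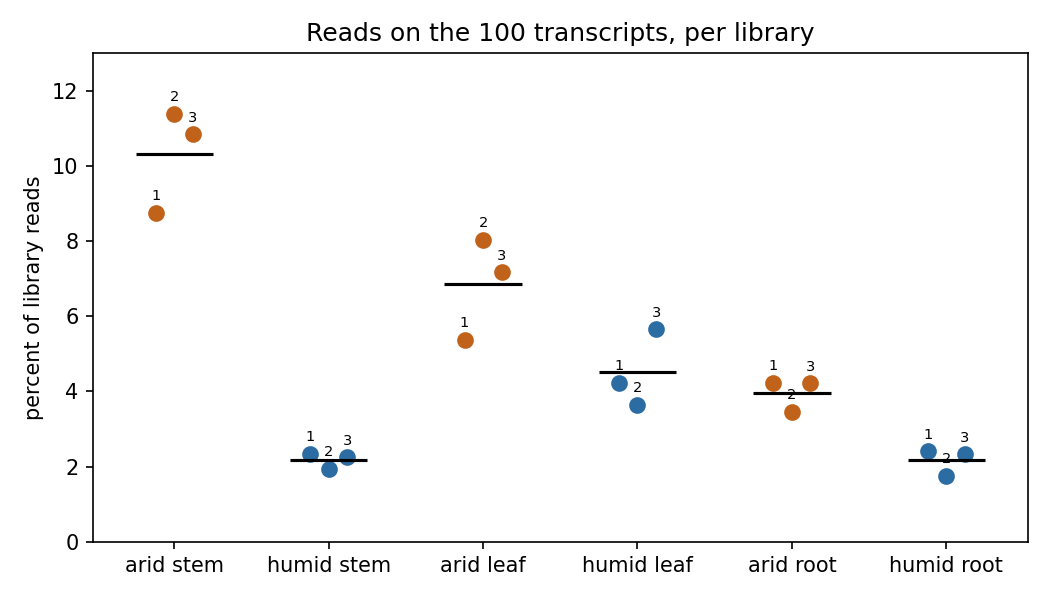
Percent of each library's reads (vertical axis) on the 100 transcripts, by forest and organ (horizontal axis), with 1 point per library labelled by its seedling number and a line at the mean of 3. The arid stems lie between 8.75% and 11.4%, above every other library, and the humid stems between 1.94% and 2.35%.

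The gain was spread unevenly over the members. The first 5 by rank held 27.0% of the summed gain, the first 10 held 41.0% and the first 20 held 59.1%. The ratio of the arid to the humid stem mean had a median of 6.52 and ranged from 1.30 to 3599.7. It was at least 2 for 86 members, at least 10 for 41 and at least 50 for 15. In 61 members all 3 arid stems lay above all 3 humid stems, and in none all lay below, against 3.23% and 25.6% of the 40897 transcripts that passed the filter on low counts. The choice of members fixes these counts in part, and nothing is read from them. All 100 members passed that filter. The shares of 3.23% and 25.6% depend on CPM by column totals. With the scaling used in the tests below, 51.4% of all tested transcripts had a positive log2 fold change in stems, with a median of 0.03. Outside the stem, the median of the members' mean levels was 456 CPM in arid leaves, 176 CPM in humid leaves, 244 CPM in arid roots and 93.3 CPM in humid roots, against 4.27 to 4.69 CPM over all tested transcripts in these groups. A rule on differences in CPM favours abundant transcripts, and 27608 of the 40897 tested rows start with Ag_. The shares over all tested transcripts are therefore not matched to the members for level or kind of row. The arid stem was the group with the highest mean for 68 members, the arid leaf for 18, the arid root for 7, the humid leaf for 4 and the humid root for 3. The choice on stem levels fixes these counts in part too.

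**Figure D2:**
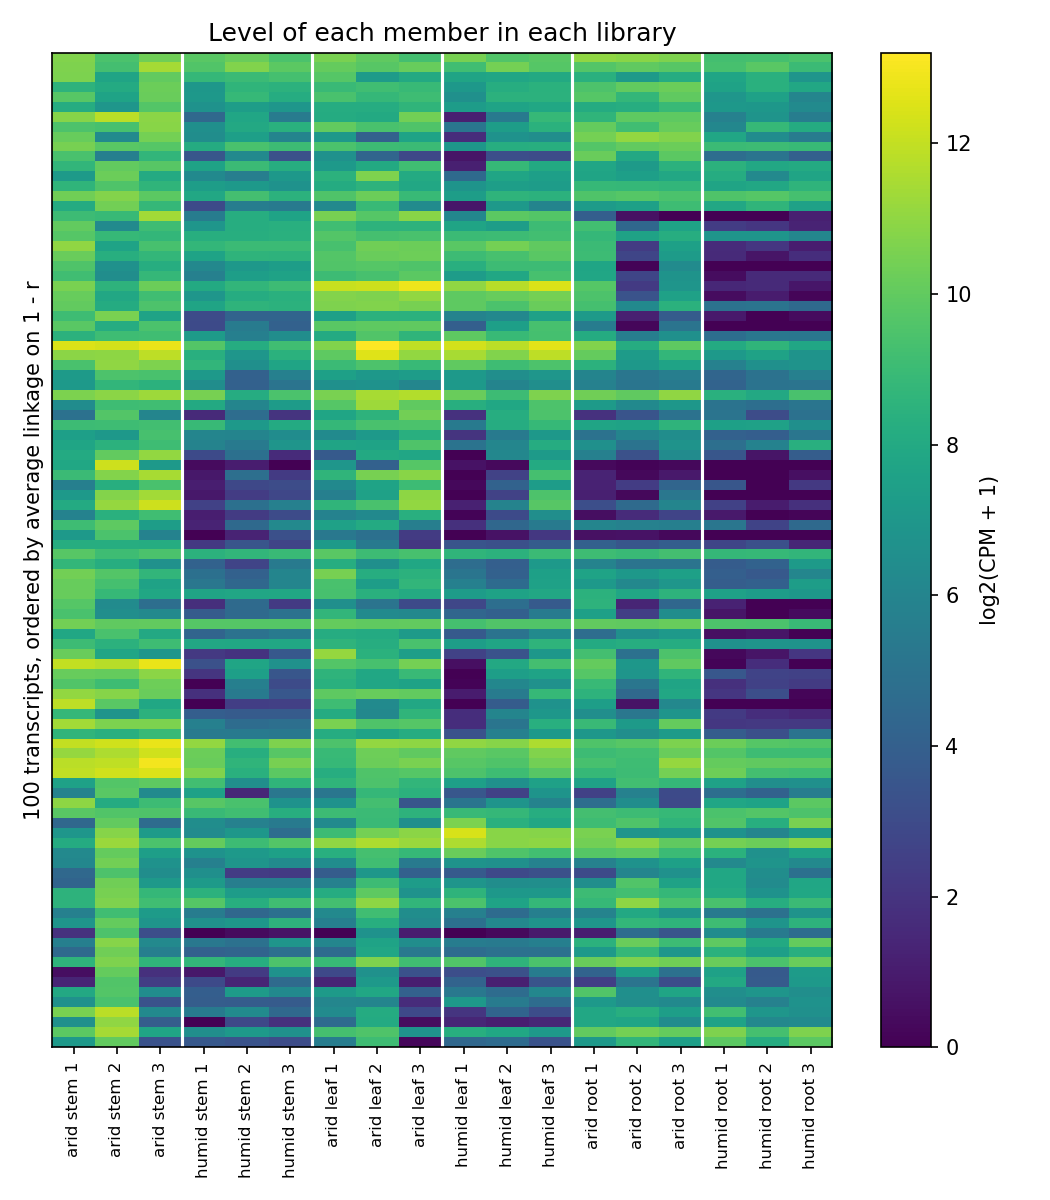
Level of each of the 100 members (rows, ordered by average linkage on correlation) in each of 18 libraries (columns, arid left of humid within each organ), as log2 of CPM with a pseudocount of 1. Most rows are brighter in the arid than in the humid stems, several blocks of rows are dark in humid roots, and most rows near the bottom are brightest in arid stem 2 among the stems.

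The transcript with the largest gain, Ag_41240, had 5826, 5127 and 6908 CPM in arid stems 1, 2 and 3, against 823, 286 and 568 CPM in humid stems 1, 2 and 3. All 3 arid stems lay above all 3 humid stems and within the range of the leaves, where it had 1641, 9377 and 3968 CPM in arid leaves 1, 2 and 3, against 5006, 3626 and 6379 CPM in humid leaves 1, 2 and 3. The ranges of arid and humid leaves overlapped, with a log2 fold change of 0.09 (SE 0.64, adjusted p = 1) by the quasi-likelihood test of edgeR. Ag_41842, ranked 9, followed Ag_41240 closely on log2 CPM, with a Pearson's r of 0.990 over 18 libraries and 0.997 over leaf and root libraries. It had 1933, 1969.5 and 3835 CPM in arid stems 1, 2 and 3, against 319, 123 and 344 CPM in humid stems 1, 2 and 3. Its arid stems all exceeded its humid stems, while its leaf means were 3059 ± 2698 CPM in the arid and 2746 ± 1056 CPM in the humid forest (SD, n = 3 each). The humid leaf means of both lay above their humid stem means.

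Another pattern was seen in Ag_36388, Ag_47714, Ag_48248 and Ag_44619, ranked 3 to 6. Ag_36388 had 3614, 3916 and 8036 CPM in arid stems 1, 2 and 3, against 1177, 389 and 1444 CPM in humid stems 1, 2 and 3. Outside the stem its group means lay close together, at 1047 ± 523 CPM in arid leaves, 975 ± 301 CPM in humid leaves, 1134 ± 919 CPM in arid roots and 1017 ± 52.4 CPM in humid roots. Ag_48248, with the highest mean of all members in humid stems, had 4005, 4826 and 6949 CPM in arid stems 1, 2 and 3, against 2104, 589.6 and 1625 CPM in humid stems 1, 2 and 3. Arid stems stood above humid stems in all 4 transcripts, and humid stem 2 was the lowest stem in each. In leaves their log2 fold changes lay between -0.40 and 0.19 and in roots between -0.02 and 0.30, with adjusted p-values of at least 0.86 by edgeR and SEs between 0.53 and 0.61. No forest difference was detected for them outside the stem at this precision.

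Other leading members were scarce in humid stems. Ag_42043, ranked 2, had 4101, 3481 and 6965 CPM in arid stems 1, 2 and 3, against 8.84, 218 and 101.9 CPM in humid stems 1, 2 and 3. Ag_36458 had 2592, 1523 and 1552 CPM in arid stems 1, 2 and 3, against 52.9, 24.1 and 27.4 CPM in humid stems 1, 2 and 3. Both stood more than 10-fold above the highest humid stem in every arid stem. Ag_41999 had 263, 2228 and 4606 CPM in arid stems 1, 2 and 3, against 4.91, 28.3 and 51.9 CPM in humid stems 1, 2 and 3, and Ag_36486 had 1756, 3599 and 1904 CPM in arid stems 1, 2 and 3, against 20.8, 219 and 44.7 CPM in humid stems 1, 2 and 3. In Ag_41999 the arid stems themselves ranged widely, with arid stem 1 far below arid stem 3. The 3 members with the lowest humid stem means were Ag_8111, Ag_46188 and Ag_46671. Ag_46188 was counted 2, 14 and 0 times in humid stems 1, 2 and 3 and had 235, 4731 and 134 CPM in arid stems 1, 2 and 3. Nearly all of its gain came from arid stem 2.

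**Figure D3:**
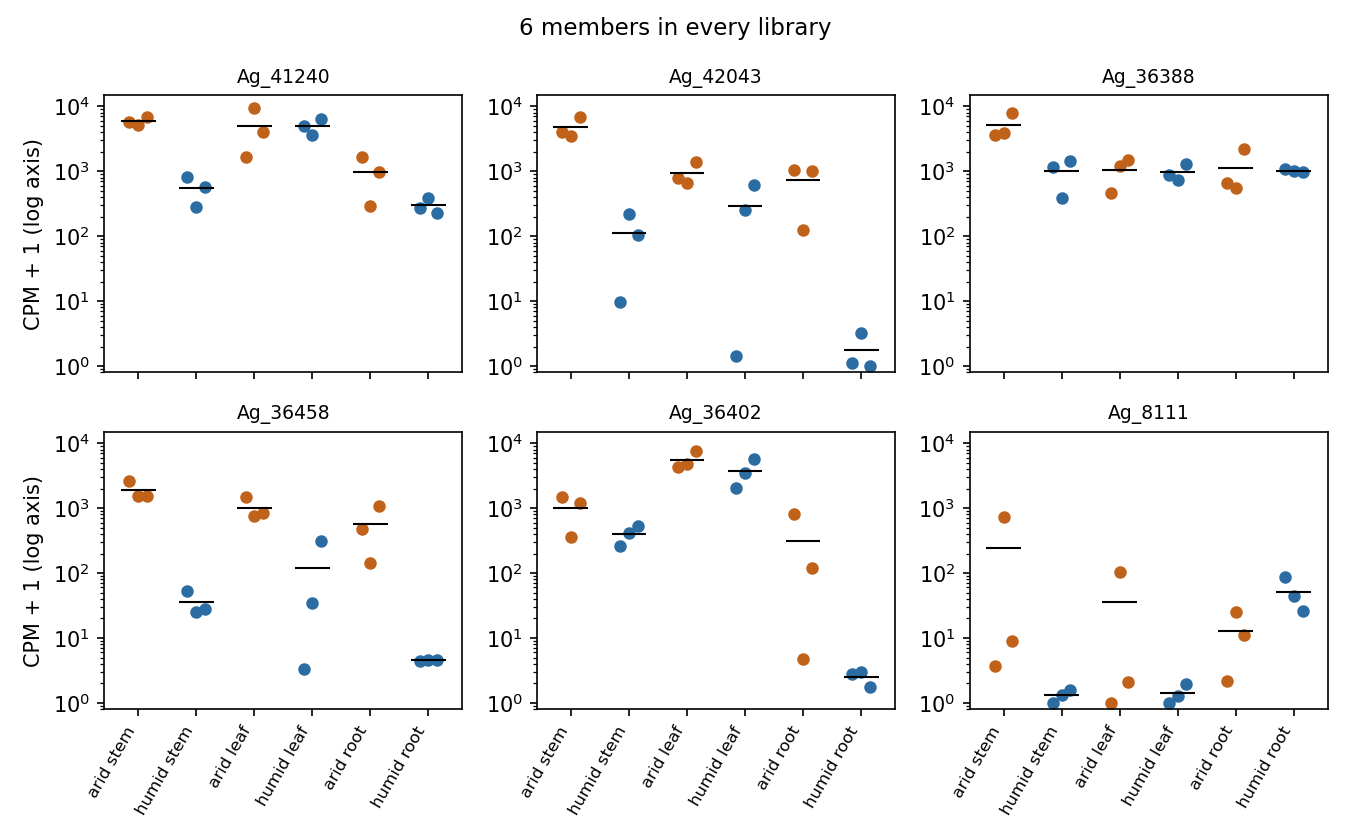
Level of 6 members in every library, as CPM plus 1 on a log axis, by forest and organ, with arid libraries in orange, humid libraries in blue and a line at the mean of 3. Ag_42043 and Ag_36458 are higher in arid stems and roots, and Ag_36458 also in arid leaves. In leaves Ag_42043 had a log2 fold change of 1.80 (SE 1.37, adjusted p = 0.94 by edgeR). Ag_36388 differs in stems, and Ag_36402 is near 1 CPM in humid roots and at 827 CPM in arid root 1. Ag_8111 is high in arid stem 2 only among stems.

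How the 3 arid stems shared each member's gain varied. In 65 members 1 arid stem held over 50% of the sum over the 3, in 23 it held over 75% and in 8 over 90%. At the even end Ag_44585 had 296, 302 and 291 CPM in arid stems 1, 2 and 3, against 3.6, 10.04 and 5.63 CPM in humid stems 1, 2 and 3. Its arid stems were nearly equal. At the other end were Ag_21312, Ag_11357 and Ag_8111, in which arid stem 2 held 99.7%, 99.2% and 98.6% of the sum. Ag_21312 had 0.42, 1098 and 2.58 CPM in arid stems 1, 2 and 3, against 0.818, 3.89 and 105 CPM in humid stems 1, 2 and 3. Arid stem 2 was far above the rest, and humid stem 3 lay above arid stems 1 and 3.

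Of the 23 members with over 75% of the sum in 1 library, 19 had it in arid stem 2, 4 in arid stem 1 and none in arid stem 3. In 10 of the 19, neither arid stem 1 nor arid stem 3 exceeded the highest humid stem. These 19 were picked on their stem values, and what follows describes them. Within the arid leaves, arid leaf 2 of the same seedling was the highest for 14 of the 19 and for 30 of the other 81 members. Within the arid roots, arid root 2 was the highest for 12 of the 19 and for 13 of the other 81. The humid root mean exceeded the humid leaf mean for 12 of the 19 and for 21 of the other 81. All 3 members on the list of root-typical transcripts were among the 19, and arid stem 2 was the arid stem with the most reads on the rest of that list. Arid stem 2 also had the fewest reads of all 6 stems on transcripts with 50 CPM or more in humid stems and 20-fold or more above humid roots. Members left out, these took 2.85%, 0.758% and 2.12% of the reads of arid stems 1, 2 and 3, against 1.29% to 1.98% in humid stems. The part of root tissue or RNA in arid stem 2 in the gain of the 19 was not tested. Without arid stem 2 the same rule returned 69 of the 100 members.

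**Figure D4:**
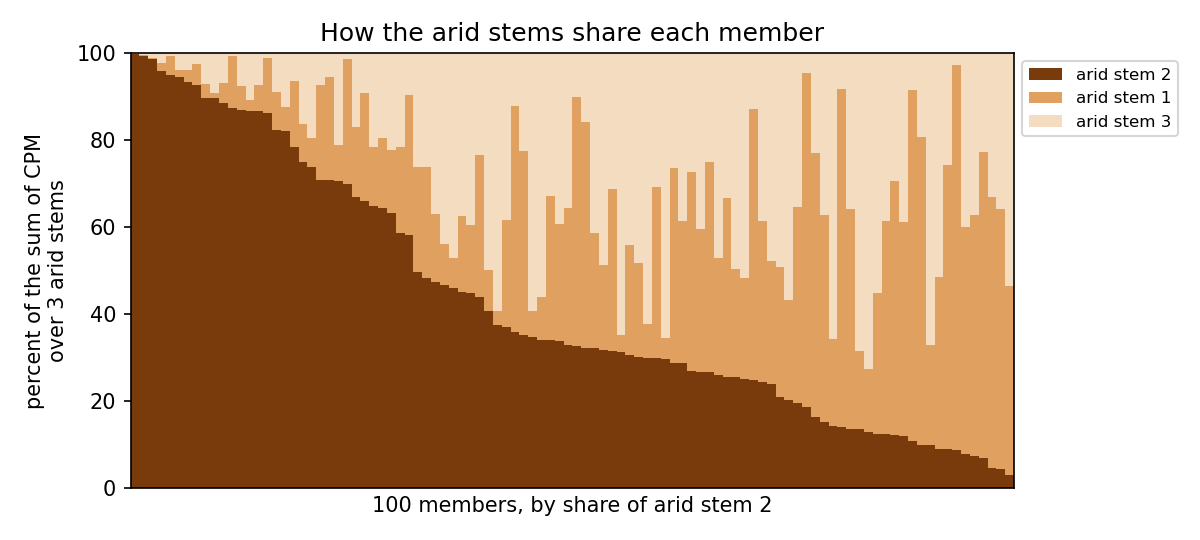
Percent of the summed CPM of the 3 arid stems (vertical axis) that each arid stem held, for each of the 100 members (bars), ordered by the share of arid stem 2. At the left arid stem 2 holds up to 99.7% of the sum, and 19 members have over 75% there.

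Leaves, which the choice did not use, were compared to ask whether the members also differed between the forests there. They were higher on the whole in arid leaves: 89 of 100 had a positive log2 fold change and the median was 1.38 (quartiles 0.69 and 2.21), against a median of 0.04 and 52.7% positive over all 40897 tested transcripts. In 33 members all 3 arid leaves lay above all 3 humid leaves, against 5.15% of all tested transcripts, and in 0 members all lay below, against 8.28%. No member was called by edgeR at an adjusted p under 0.05, nor was any other transcript (0% in each direction). At an unadjusted p under 0.05 edgeR found 29 members higher, against 2.57% of all tested, and 0 lower, against 4.03%. DESeq2 called 8 members higher, against 0.115% of the transcripts it adjusted, and none lower, against 0.758%. The stem and leaf libraries come from the same seedlings, so the leaves are other libraries but not other plants.

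The largest leaf fold changes were those of Ag_8111, Ag_46671 and Ag_29776. Ag_29776 had 2172, 344 and 165 CPM in arid leaves 1, 2 and 3, against 5.04, 9.23 and 125 CPM in humid leaves 1, 2 and 3. The groups did not overlap, arid leaf 1 was the highest, and the test gave a log2 fold change of 4.17 (SE 1.43, adjusted p = 0.55). Ag_46671 had 23.3, 268 and 0.357 CPM in arid leaves 1, 2 and 3, against 1.65, 1.12 and 1.69 CPM in humid leaves 1, 2 and 3. Arid leaf 3 lay below the humid leaves and arid leaf 2 was the highest, with a log2 fold change of 6.11 (SE 1.94, adjusted p = 0.48). Ag_8111, with 0, 103 and 1.07 CPM in arid leaves 1, 2 and 3 and at most 0.971 CPM in a humid leaf, likewise rested on arid leaf 2. Of the leading stem members, Ag_36458 had 1462, 752 and 855 CPM in arid leaves 1, 2 and 3, against 2.3, 34 and 315 CPM in humid leaves 1, 2 and 3. All arid leaves exceeded all humid leaves, with a log2 fold change of 3.13 (SE 1.05, adjusted p = 0.52). Ag_48446 had 289, 266 and 145 CPM in arid leaves 1, 2 and 3, against 12.4, 31.3 and 78.5 CPM in humid leaves 1, 2 and 3, again without overlap, and a log2 fold change of 2.55 (SE 0.71, adjusted p = 0.41).

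The lowest leaf fold changes were those of Ag_23673, Ag_48505 and Ag_25207, between -1.62 and -0.78 with adjusted p-values of at least 0.93. Ag_48505 had 524, 1395 and 1929 CPM in arid leaves 1, 2 and 3, against 5382, 1822 and 1799 CPM in humid leaves 1, 2 and 3, so that humid leaf 1 was far above the rest. Humid leaves varied among themselves. Over all 100 members the median level was 368, 486 and 403 CPM in arid leaves 1, 2 and 3, against 52.7, 136 and 249 CPM in humid leaves 1, 2 and 3. Humid leaf 1 was the lowest humid leaf for 57 members and humid leaf 3 the highest for 64. Without humid leaf 3 the median log2 fold change in leaves was 1.77, with 43 members higher at an unadjusted p under 0.05 by edgeR. Over all, 2097 of 42684 tested transcripts were higher in that fit. Without arid leaf 2 the median was 0.91 with 18 members higher, and 731 of 42741 tested transcripts were. With all libraries these counts were 29 members and 1051 of 40897, so the count over all transcripts changed too.

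**Figure D5:**
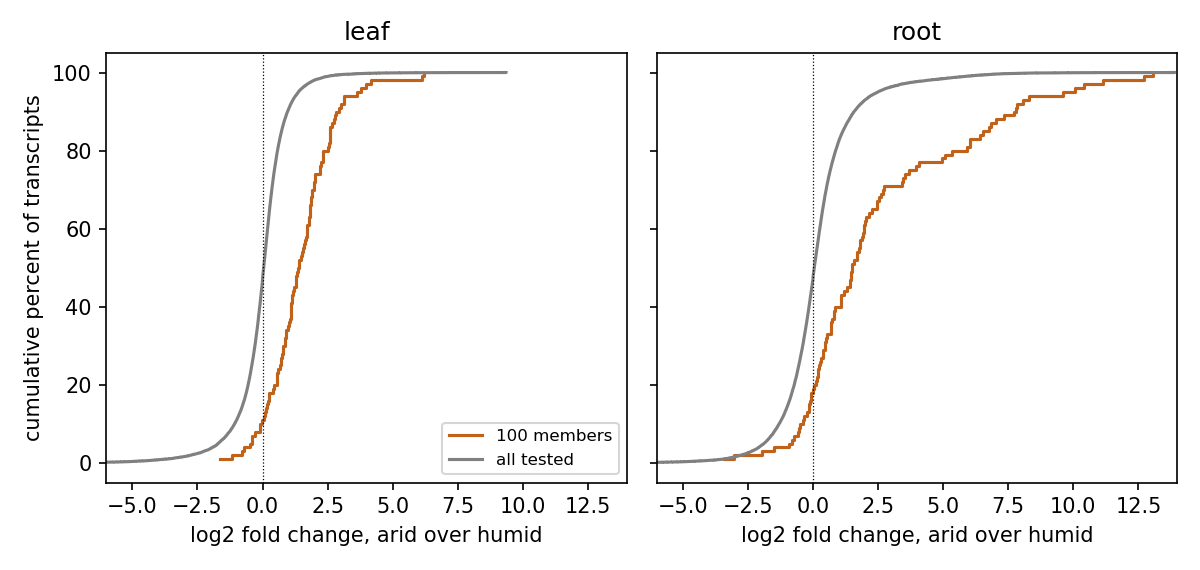
Cumulative percent of transcripts (vertical axis) by log2 fold change of arid over humid (horizontal axis, cut at -6 and 14) in leaves and in roots, for the 100 members and for all 40897 tested transcripts. The members' curve lies to the right of that of all transcripts in both organs, with medians of 1.38 in leaves and 1.48 in roots against 0.04 and 0.05; fitted values beyond 10 in roots belong to members at or near 0 reads in humid roots.

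Roots gave the same direction for most members. The log2 fold change of arid over humid roots was positive for 81 of 100, with a median of 1.48 (quartiles 0.26 and 3.76), against 0.05 over all tested transcripts, of which 52.4% were positive. In 53 members all 3 arid roots lay above all 3 humid roots, against 10.9% of all tested transcripts, and in 3 all lay below, against 11.8%. By edgeR 19 members rose, against 1.37% of all tested transcripts, and none fell, against 0.249%. Their log2 fold changes ran from 1.48 to 13.06, and their adjusted p-values from 0.0048 to 0.048. Leaving out single libraries made the count smaller in some fits and larger in others, and the count over all transcripts changed too. Leaving out arid root 2 gave 23 members higher, with 992 of 42614 tested transcripts higher, against 560 of 40897 with all libraries. Leaving out humid leaf 1 gave 25, with 534 of 43390. Leaving out humid root 3 gave 0 members higher, against 0.00232% of all tested, and leaving out humid root 1 gave 6, against 0.475%. Leaving out humid root 2 gave 9, against 0.514%, and leaving out arid root 1 gave 7, against 0.196%. Without humid root 3 the log2 fold changes of the 19 ran from 1.49 to 13.10, about as large as with it, and their adjusted p-values from 0.057 to 0.21. Without arid root 1 these log2 fold changes ran from 1.36 to 11.74. At an unadjusted p under 0.05 edgeR found 47 members higher, against 9.99% of all tested, and 1 lower, against 5.55%. DESeq2 called 36 members higher, against 4.95% of the transcripts it adjusted, and 1 lower, against 2.42%.

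Among these root results stood members typical of the shoot. On the lists of transcripts with 50 CPM or more in humid leaves or humid stems and 20-fold or more above humid roots were 21 members, and 12 of the 19 called ones were among them. These lists use the humid roots that the test also uses. Of the 19, arid root 1 was the highest arid root for 13, and arid root 2 the lowest for 17. In all 19, arid root 2 still exceeded every humid root. The rest of the leaf-typical list moved the same way, as given above, at 2.21% of the reads in arid root 1, 0.148% in arid root 2 and at most 0.0650% in a humid root. The 72 root-typical transcripts, members left out, took 0.172%, 0.483% and 0.186% of the reads of arid roots 1, 2 and 3, against 1.11% to 1.57% in humid roots, so every arid root was below every humid root. The part of both shifts in the members' rise was not tested. Among the 7 members still called without arid root 1, 6 were on the lists. Of the 79 members off the lists, 7 were called higher and 35 had all arid roots above all humid roots. Of the 21 on the lists these were 12 and 18. The shares over all tested transcripts were 1.37% and 10.9%. Off the lists does not mean level between leaf and root. Of the 7 called off the lists, Ag_48446, Ag_29776, Ag_20313, Ag_12955 and Ag_25030 were also called higher in humid leaf than in humid root by edgeR. Ag_37274 and Ag_47209 were not.

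Ag_36402, on the shoot-typical lists, had 827, 3.68 and 118 CPM in arid roots 1, 2 and 3, against 1.77, 1.96 and 0.754 CPM in humid roots 1, 2 and 3. The humid roots were close to 0 and the arid roots spread over a wide range, with a log2 fold change of 7.79 (SE 1.39, adjusted p = 0.014). Its leaf means were 5551 ± 1745 CPM in arid and 3718 ± 1831 CPM in humid leaves (SD, n = 3 each). Ag_26640 had 737, 9.22 and 188 CPM in arid roots 1, 2 and 3, against 0.332, 0.979 and 0.151 CPM in humid roots 1, 2 and 3, and Ag_23716 had 522, 5.65 and 149.7 CPM in arid roots 1, 2 and 3, against 1.99, 0.653 and 2.26 CPM in humid roots 1, 2 and 3. Arid root 1 was the highest and arid root 2 the lowest arid root in both, and the log2 fold changes were 9.59 and 7.02 (adjusted p = 0.0074 and 0.0088 by edgeR). Ag_47121 had 508, 3.95 and 181 CPM in arid roots 1, 2 and 3, against 2.1, 3.26 and 1.06 CPM in humid roots 1, 2 and 3 (adjusted p = 0.014). Ag_48474 was not counted in any humid root and had 2452 counts over the arid roots, which made it at least 435-fold higher there, taking 3 counts over the 3 humid roots as the floor.

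Among other called members the order of the arid roots varied. Ag_48446, off the lists of shoot-typical transcripts, had 25.7, 92.8 and 139 CPM in arid roots 1, 2 and 3, against 0.442, 0.653 and 0 CPM in humid roots 1, 2 and 3. Arid root 1 was the lowest of the arid roots, and the test gave a log2 fold change of 8.05 (SE 1.02, adjusted p = 0.0048). It remained called without arid root 1, at a log2 fold change of 8.50 and an adjusted p of 0.0072. Ag_42043, on the lists, had 1063, 124 and 1003 CPM in arid roots 1, 2 and 3, against 0.111, 2.28 and 0 CPM in humid roots 1, 2 and 3. Arid root 1 was its highest and arid root 2 its lowest arid root. The test gave a log2 fold change of 10.41 (SE 2.10, adjusted p = 0.021) and, without arid root 1, 10.04 (adjusted p = 0.066), no longer called. Ag_36458, also on the lists, had 483, 143 and 1078 CPM in arid roots 1, 2 and 3, against 3.43, 3.59 and 3.62 CPM in humid roots 1, 2 and 3. Arid root 3 was the highest there, and the log2 fold change was 7.33 (SE 1.29, adjusted p = 0.012) and, without arid root 1, 7.44 (adjusted p = 0.037). Ag_29776 and Ag_20313, off the lists like Ag_48446, had log2 fold changes of 8.28 and 7.82 (adjusted p = 0.028 and 0.014 by edgeR). Without arid root 1 these were 7.99 and 6.81 (adjusted p = 0.081 and 0.055), no longer called. Though off the lists, Ag_29776, Ag_20313 and Ag_48446 were each called higher in humid leaf than in humid root. Their log2 fold changes of leaf over root were 5.13, 6.15 and 7.06 (adjusted p = 0.044, 0.0081 and 0.00053 by edgeR).

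In 6 members no humid root had a read. For these a fold is a lower bound, which was 347 for Ag_43955, 117 for Ag_32034 and 62.4 for Ag_38258, none of them called. Ag_21997 and Ag_46188 had 16 and 6 counts over all arid roots, close to the floor of 3 counts. With the 6 at their bounds the median log2 fold change of the members in roots was 1.48, as above. The lowest root fold changes belonged to Ag_41676, Ag_11357 and Ag_8111. Ag_41676 had 25.7, 88.5 and 6.58 CPM in arid roots 1, 2 and 3, against 225, 199.7 and 948 CPM in humid roots 1, 2 and 3. All arid roots lay below all humid roots, with a log2 fold change of -3.43 (SE 1.28, adjusted p = 0.2). In stems it had 1961, 276 and 533 CPM in the arid and 856, 672 and 107 CPM in the humid forest, where the groups overlapped.

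In 4 members the arid root had more CPM than both the leaf and the stem of its own seedling in all 3 arid seedlings. The choice of members used the arid stem level, which limits this count, and nothing is read from it. The 4 members were named after their values were seen. Ag_36471 had 1372, 2127 and 1638 CPM in arid roots 1, 2 and 3, against 220.1, 83.8 and 43.1 CPM in humid roots 1, 2 and 3. Arid root 2 was the highest, and the test gave a log2 fold change of 3.97 (SE 1.19, adjusted p = 0.11). Ag_37274 had 1155, 252 and 926 CPM in arid roots 1, 2 and 3, against 24.9, 32.6 and 15.7 CPM in humid roots 1, 2 and 3, a log2 fold change of 5.05 (SE 1.22, adjusted p = 0.048), and without arid root 1 a log2 fold change of 4.66 (adjusted p = 0.15), no longer called. Ag_43419 had 2021, 1865 and 1583 CPM in arid roots 1, 2 and 3, against 599, 636 and 696 CPM in humid roots 1, 2 and 3 and a log2 fold change of 1.56 (SE 0.39, adjusted p = 0.054). In these 3 the arid roots exceeded the humid roots without overlap. Ag_48573 had 1352 ± 231 CPM in arid and 1006 ± 259 CPM in humid roots (SD, n = 3 each), with an adjusted p of 0.78.

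The members were next compared between leaf and root within each forest. In humid seedlings 33 members were called higher in leaf than in root by edgeR, against 7.69% of all tested transcripts, and 2 lower, against 4.25%. With the seedling as a block, which pairs the leaf and the root of a plant, 34 were higher, against 8.82% of all tested, and 12 lower, against 5.65%. At an unadjusted p under 0.05, 45 were higher, against 15% of all tested, and 14 lower, against 10.7%. The median log2 fold change of leaf over root was 1.13, against 0.04 over all tested transcripts. The largest were those of Ag_48474, Ag_32034 and Ag_38258, each without a read in humid roots and with means of 459, 276 and 240.1 CPM in humid leaves. Ag_38258 varied most there, with 0, 5.18 and 715 CPM in humid leaves 1, 2 and 3. The most root-sided were Ag_8111, Ag_46671 and Ag_18442. Ag_18442 had 20.1, 23.4 and 8.99 CPM in humid leaves 1, 2 and 3, against 933, 291 and 927 CPM in humid roots 1, 2 and 3, without overlap (adjusted p = 0.059). The 33 leaf-sided members had medians of 676 CPM in arid and 96.2 CPM in humid stems, and the 65 uncalled ones 614 CPM in arid and 84.9 CPM in humid stems. Without humid leaf 3, 22 members were called, all higher in leaf, against 4.55% of all tested, and without humid root 1 also 22, all higher in leaf, against 4.93%.

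In arid seedlings fewer members were called between leaf and root, and fewer transcripts over all. Of 40897 tested, 1438 were called there, against 4886 in humid seedlings. By edgeR 8 were higher in leaf, against 1.91% of all tested transcripts, and none lower, against 1.61%. At an unadjusted p under 0.05, 37 were higher, against 9.91% of all tested, and 3 lower, against 8.14%. With this block 20 were higher, against 3.66% of all tested, and 2 lower, against 2.92%, so that calls over all transcripts increased too. The median log2 fold change of leaf over root was 0.99. Whether the forest difference itself differed between leaf and root was tested in the same model. By edgeR no member was called, nor was any other transcript (0% in each direction). At an unadjusted p under 0.05, 6 members had a larger forest log2 fold change in leaf, against 2.29% of all tested, and 24 a larger one in root, against 5.4%. DESeq2 called 1 member larger in leaf, against 0.269% of the transcripts it adjusted, and 14 larger in root, against 1.24%. Without arid root 2, edgeR called 0 members larger in leaf, against 0.0164% of all tested, and 8 larger in root, against 0.495%. For single members, edgeR on all libraries therefore gives no order between the forest differences of leaf and root.

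Some members moved together closely enough to form groups. Joining members whose log2 CPM correlated above 0.95 over the 18 libraries gave 10 groups that held 34 members. These correlations describe 18 libraries that share seedlings and depth. The stems that chose the members are among them, and a shared rise in arid stems can raise r. Over the 12 leaf and root libraries the joined pairs had r between 0.930 and 0.997. A member needed r above 0.95 with only 1 other of its group, and the lowest r within a group was 0.902. The largest held 9 members: Ag_36402, Ag_47121, Ag_26640, Ag_12050, Ag_41689, Ag_23716, Ag_48474, Ag_12955 and Ag_23617. The median of their mean levels was 625 CPM in arid stems, 313 CPM in humid stems, 1051 CPM in arid leaves, 691 CPM in humid leaves, 268 CPM in arid roots and 1.64 CPM in humid roots. All 9 were among the 19 called higher in arid roots, and 8 were on the lists of shoot-typical transcripts. The root libraries are among the 18 that formed the groups, so these root calls are not independent of the grouping. Members this alike are not 9 separate results. The second group, of Ag_41999, Ag_36448, Ag_38258, Ag_32720 and Ag_48274, had medians of 1500.3 CPM in arid stems, 4.90 CPM in humid stems, 743 CPM in arid leaves, 214 CPM in humid leaves, 8.14 CPM in arid roots and 0.345 CPM in humid roots. None of these 5 was called in roots or had arid leaves wholly above humid leaves. Transcripts that share sequence can share reads, and without sequences it cannot be told whether members of a group are near copies.

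The border of the set was not marked by a step. Ag_23617 and Ag_26047, at ranks 99 and 100, gained 233 and 227 CPM, and Ag_12337 and Ag_11199, the next in rank, gained 225 and 224 CPM. Ag_26047 had 52.7, 571 and 151 CPM in arid stems 1, 2 and 3, against 45.7, 20.1 and 28.5 CPM in humid stems 1, 2 and 3, while Ag_12337, just outside, had 551, 245 and 243 CPM in arid stems 1, 2 and 3, against 114, 109.6 and 140.4 CPM in humid stems 1, 2 and 3. Arid and humid stems did not overlap in either. A difference in CPM can rank a transcript high at a small ratio: Ag_46089, among the 3 highest in humid stems, had 1606, 617 and 2737 CPM in arid stems 1, 2 and 3, against 795, 1679 and 947 CPM in humid stems 1, 2 and 3, and its groups overlapped although its mean gain was 513 CPM. Ranking by fold in place of the difference kept 36 of the 100 members.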

How the data were processed

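The authors deposited raw counts of uniquely mapped reads per transcript, per the deposited files' names and headers, in 1 table and in 18 files per library that held equal values. Bowtie 0.12.2 and edgeR are named, with no role, per the submitters' processing notes. For the reference transcriptome and the counter, nothing is given in the sources used here. Per the labels' protocols, libraries were made with the Illumina TruSeq kit from 0.5 µg of total RNA and sequenced as read pairs. Samples were grouped by the forest, organ and number in the labels, and libraries with 1 number and forest come from 1 seedling per the series' design.

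Levels are CPM by column totals. Tests used the quasi-likelihood F-test of edgeR 4.0.16 in R 4.3.3 on all 18 libraries, with trimmed mean of M-values (TMM) factors, a minimum count of 10, a minimum total count of 15, 1 mean per group and Benjamini-Hochberg adjustment over 40897 transcripts, called at an adjusted p under 0.05. SEs are the absolute log2 fold change divided by the square root of F. TMM factors were 0.787 to 0.982 in arid stems and 1.17 to 1.23 in humid stems, so TMM-scaled gains in stems exceed those in CPM. Totals of 3.07 M to 23.7 M reads (M, 1000000) set a floor of 0.127 to 0.979 CPM for 3 counts, which covers counting error only. Alternatives were DESeq2 1.42.0, other scalings, no filter, fits on the groups compared, a replicate block and leaving out each library. Deviations of leaf and root from their group means correlated at 0.21, 0.211 and 0.251 for arid seedlings 1 to 3 and at -0.0751, 0.122 and -0.00338 for humid seedlings 1 to 3. Figures were drawn with matplotlib 3.10.9. The edgeR leaf contrast was tested on simulated counts with known fold changes. Their dispersion was set to a single value and not taken from these data. The other contrasts, DESeq2 and the choice of members were not simulated.

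Members named in the text are the 10 with the largest gain; up to 10 called per forest contrast and direction; the 3 highest and 3 lowest fold changes in leaf, in root and of leaf over humid root; the 2 members and 2 non-members nearest the border of the rule; the 3 highest and 3 lowest in humid stems; and the 3 most dominated by 1 arid stem. Others named were chosen after their values were seen. The members and lists were chosen with earlier results of these data known.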

Additional observations from a re-analysis of the deposited data

Results flagged for a closer look

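In Ag_36520 and Ag_8111 the stems and the roots moved in opposite directions without overlap between the forests. Ag_36520 was 361.4 CPM higher on average in arid than in humid stems, with 916, 772 and 766 CPM in arid stems 1, 2 and 3, against 493, 571 and 306 CPM in humid stems 1, 2 and 3. In roots its difference of means was -202.9 CPM, with 616, 536 and 464 CPM in arid roots 1, 2 and 3, against 694, 798 and 733 CPM in humid roots 1, 2 and 3. Ag_8111 was 243 CPM higher on average in arid than in humid stems, a gain that arid stem 2 held almost alone, and its difference in roots was -39.17 CPM, with 1.14, 24.4 and 9.97 CPM in arid roots 1, 2 and 3, against 85.2, 43.1 and 24.7 CPM in humid roots 1, 2 and 3. The stem direction was fixed by the choice of members, and the difference between stem and root was not tested. In roots alone the adjusted p-values by edgeR were 0.56 and 0.66.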

How the results depend on the processing

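Counts here are of members called by edgeR at an adjusted p under 0.05 unless DESeq2 is named. Each number over all counts called transcripts, of 40897 in the main fit and with the block, 47821 without the filter and 40782 with DESeq2. Without single libraries 42441 to 43390 were tested. In leaves no member was called under any scaling, without the filter, in the fit on leaves alone, with the replicate block or without any single library. In these fits at most 5 were called over all, without humid root 3. DESeq2 called 8 members (335 over all). In roots the 19 calls (662 over all) became 37 with DESeq2 (2422 over all). The fit on roots alone tested 91 members and called 11 (160 over all, of 31669 tested), of which 6 were among the 19. Leaving out single libraries gave 0 without humid root 3 (1 over all) to 25 without humid leaf 1 (638 over all). In humid leaf against root the count of 35 (4886 over all) ranged from 22 to 41 without single libraries. It was 22 without humid leaf 3 (2780 over all) or without humid root 1 (3268 over all), and 41 without arid stem 2 (5964 over all). In arid leaf against root the 8 calls (1438 over all) became 5 without the filter (1158 over all) and 22 with DESeq2 (3945 over all). They became 22 with the seedling as a replicate block (2692 over all), and 0 to 13 without single libraries. The count was 0 without arid root 2 (276 over all) or without arid root 3 (323 over all), and 13 without humid leaf 1 (1466 over all). The 0 calls on the forest effect in leaf against root (0 over all) became 15 with DESeq2 (447 over all). Without single libraries they were 0 to 8, the 8 without arid root 2 (218 over all). Upper quartile factors moved the median log2 fold change of leaf over root in all tested transcripts to -0.11 in both forests, against 0.04 in humid and 0.01 in arid seedlings with TMM. With the block the humid leaf against root calls were 34 higher and 12 lower (3606 and 2309 over all), against 33 and 2 without it (3146 and 1740 over all). In the forest contrasts numbers did not pair seedlings. The block there gave 0 calls in leaves (1 over all) and 18 in roots (662 over all). All 10 members followed singly in roots kept a positive fold change in each alternative, with 206 values still called and 33 not; the cause was not tested. The rule again took 90 members with TMM or DESeq2 scaling, 76 among all rows, 69 by medians, 69 to 96 without single stems, 36 by fold, and 52 by the lowest arid minus the highest humid stem, an alternative added after seeing the data. With Ag_ reads as the denominator the members took 12.1% of arid stem reads and 2.41% of humid stem reads, against 10.3% and 2.18% of all reads. Humid roots, the shallowest group, limit folds of members near 0 there.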
